A study of Mus musculus with 6 samples.

Results

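Nell2, its paralogue Nell1, the receptor gene Ros1 and the protease gene Ovch2 belong to, or are related to, a signalling route between the testis and the epididymis. They were found as the rows of the deposited table whose single gene symbol is one of these 4 names. Each had 1 transcript cluster, a set of probes that together read 1 transcribed region, so the 4 genes stand for 4 of 21789 named clusters and of 19938 named genes. The table held 3 arrays of knockout testes and 3 arrays of control testes, all from mice at postnatal day 15 with no treatment. The labels give no strain and no alleles. They also leave unsaid whether a replicate is 1 animal or a pool, so a p-value here speaks only of the spread among these arrays, part of which may be technical. The targeted gene is not reported here, and no array value served as a check of the genotypes.

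NELL2 is a secreted glycoprotein made by germ cells of the testis. In the mouse it travels with the luminal fluid to the initial segment of the epididymis, where it acts through the receptor tyrosine kinase ROS1, a route called lumicrine signalling. The stimulated epithelium then differentiates and secretes the protease OVCH2, which takes part in maturing the sperm surface protein ADAM3. NELL1, the paralogue of NELL2, is known for its role in bone formation. Of these steps, only the making of the ligand and of the sperm surface proteins takes place in the testis.

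The arrays were alike as a whole. All values are on the log2 scale of RMA, which gives the arrays 1 shared distribution, and the array medians lay between 8.52 and 8.55. The lowest correlation between arrays was 0.995, within a group as well as across groups. Of the cells a testis holds, markers of Sertoli cells averaged 11.4 to 11.5 in every array, those of early meiotic prophase 10.7 to 10.9 and those of spermatogonia 9.78 to 9.91. Some arrays stood apart from their group. Control replicate 1 was low in genes of pachytene spermatocytes, and control replicate 3 was high in a few genes of the epididymis, both described below.

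Nell2 was lower in all 3 knockout arrays. Its cluster, 10431812 on chromosome 15, had values of 9.00, 9.12 and 9.07 in knockout testes, against 9.78, 9.89 and 9.92 in control testes. The groups did not overlap, and 0.66 lay between the highest knockout and the lowest control array. The mean was 9.06 ± 0.060 in knockout and 9.86 ± 0.074 in control arrays (SD, n = 3 each), a difference of -0.80 (SE 0.055) and a fold of 0.574, knockout over control. Nell2 was selected on this difference, 1 of 3 that the limma fit called at a threshold of 0.05 after adjustment, and the other 3 genes were chosen by their known link to it. The values of Nell2 are therefore a description, with no test taken as support. Its call was lost without any single array other than control replicate 1 (limma adjusted p of 0.0664 to 0.219). Among the 4 genes 1 was called, against 0.0138% of all tested clusters, and nothing is read from that count. In bulk testis RNA, fewer cells that express a gene and less of its RNA per cell cannot be told apart.

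The paralogue Nell1 lay low on the array. Its cluster, 10553450 on chromosome 7, had values of 6.14, 6.07 and 6.16 in knockout testes, against 6.16, 6.44 and 6.08 in control testes. The groups overlapped, and control replicate 2 alone stood above the others. The mean was 6.12 ± 0.047 in knockout and 6.23 ± 0.19 in control arrays (SD, n = 3 each), a difference of -0.10 with a 95% interval of -0.32 to 0.11 (limma adjusted p = 0.740). Without control replicate 2 the difference was 0.0033.

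Ros1, the receptor, did not pass the test either. Its cluster, 10369040 on chromosome 10, had values of 6.07, 5.68 and 6.11 in knockout testes, against 5.97, 5.86 and 5.96 in control testes. The knockout arrays spread on both sides of the control arrays, with knockout replicate 2 the lowest of the 6. The mean was 5.95 ± 0.24 in knockout and 5.93 ± 0.061 in control arrays (SD, n = 3 each), a difference of 0.02 with a 95% interval of -0.24 to 0.29 (limma adjusted p = 0.964). The sign was the opposite without knockout replicate 1 (-0.035), knockout replicate 3 (-0.055) or control replicate 2 (-0.012).

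Ovch2, the protease, had the dimmest of the 4 clusters. This cluster, 10566644 on chromosome 7, had values of 5.12, 4.88 and 5.13 in knockout testes, against 5.12, 5.14 and 5.01 in control testes. The groups overlapped, and knockout replicate 2 was again the lowest array. The mean was 5.04 ± 0.14 in knockout and 5.09 ± 0.070 in control arrays (SD, n = 3 each), a difference of -0.05 with a 95% interval of -0.23 to 0.13 (limma adjusted p = 0.878), and 0.035 without knockout replicate 2. In fold, the intervals ran from 0.802 to 1.08 for Nell1, from 0.848 to 1.22 for Ros1 and from 0.854 to 1.10 for Ovch2, so a change of the size of that of Nell2 lay outside all 3 on this scale. RMA compresses differences of dim clusters, which limits what these intervals say about the transcripts.

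**Figure D1:**
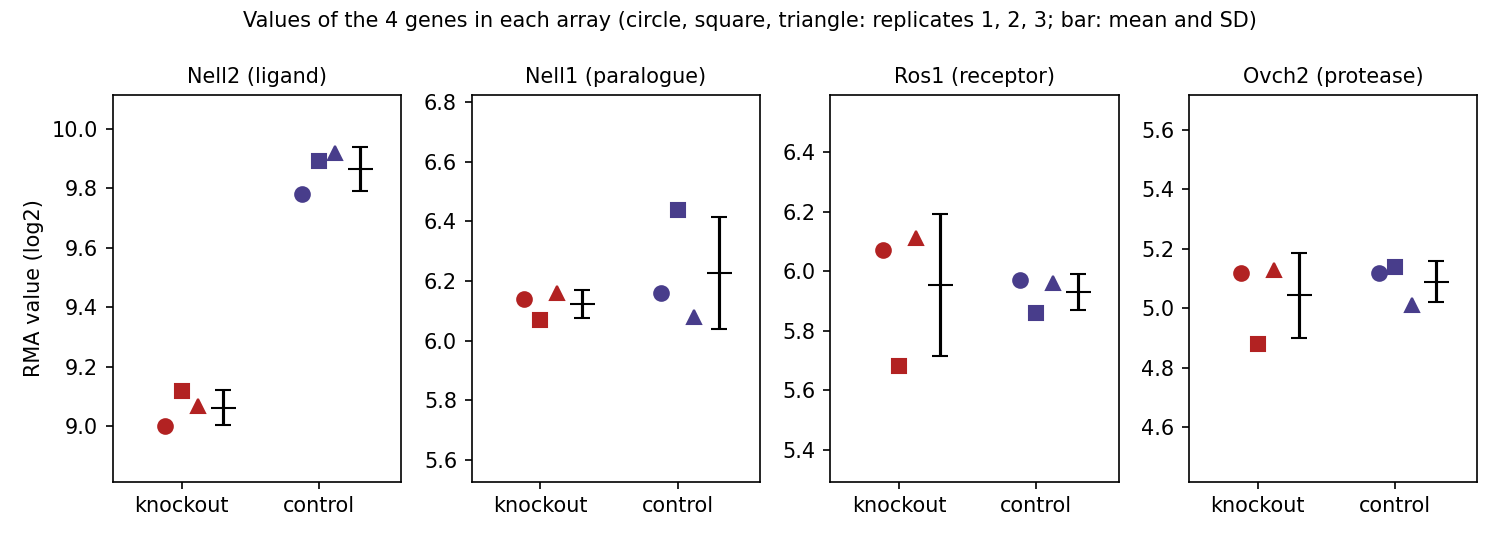
RMA values (log2) of Nell2, Nell1, Ros1 and Ovch2 in the 3 knockout arrays (red, left) and the 3 control arrays (dark blue, right), each panel spanning the same range on its own level; symbols mark replicates 1, 2 and 3, and black bars the mean and SD. Nell2 lay between 9.00 and 9.12 in knockout and between 9.78 and 9.92 in control arrays, while the groups overlapped in the other genes.

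Whether the low values of Nell1, Ros1 and Ovch2 stood above background was judged against genes not known for expression in the testis, since no detection calls were used. The 219 named clusters of vomeronasal receptors and keratin-associated proteins had a median of 4.85 and quartiles of 4.09 and 5.83. Nell2, with a mean of 9.46 over all 6 arrays, lay above 218 of them. Nell1 (6.18) lay above 183, Ros1 (5.94) above 169 and Ovch2 (5.07) above 122. The level of Ovch2 was therefore near the middle of clusters of genes with no known place in this tissue. Probes differ in response, and these levels do not rank the 4 transcripts by abundance.

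Tissue of the epididymis, where Ros1 and Ovch2 are known to be expressed, was looked for through its markers. Of 12 listed genes 11 were measured, with mean levels of 4.73 to 11.1, the highest being Cst12, a cystatin gene. Their mean over the list was 6.46 to 6.60 in knockout arrays and 6.53 to 6.78 in control arrays, with 0 of 11 called and 0 of 11 without overlap, against 15.3% of all tested clusters. Adam7, an ADAM gene of the epididymis, had values of 5.42, 5.26 and 5.38 in knockout testes, against 5.33, 5.30 and 6.51 in control testes. The lipocalin gene Lcn5 had values of 6.78, 6.53 and 6.82 in knockout testes, against 6.66, 6.93 and 7.48 in control testes. Spink8, a gene of the SPINK family of protease inhibitors, had values of 5.57, 5.55 and 5.41 in knockout testes, against 5.38, 5.60 and 9.31 in control testes. Control replicate 3 was the highest array for all 3 genes, of which Adam7 and Spink8 were chosen after their values were seen and Spink8 was not on the list. Over the 11 measured markers it was the highest array in 4 and not in the other 7. In that same array Ros1 (5.96) and Ovch2 (5.01) were not raised above the other arrays, and without it the difference of Nell2 was -0.77.

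The known partners of NELL2 and NELL1 differed little between the genotypes. Gm1673, the mouse gene of the NELL2 cofactor NICOL, had values of 8.70, 8.76 and 8.74 in knockout testes, against 8.81, 8.94 and 8.77 in control testes. The groups lay apart by a narrow margin, and the difference of -0.11 (95% interval -0.24 to 0.02) did not pass (limma adjusted p = 0.540). Ptpn6, which encodes the phosphatase SHP-1 that acts on ROS1 in the epididymis, had values of 8.22, 8.14 and 8.16 in knockout testes, against 8.11, 8.08 and 8.13 in control testes. Its difference of 0.07 (95% interval -0.03 to 0.17) did not pass (limma adjusted p = 0.630).

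Adam28, another ADAM protease gene, had values of 6.45, 6.44 and 6.31 in knockout testes, against 6.35, 6.56 and 6.35 in control testes, which overlapped (difference -0.02, limma adjusted p = 0.952). Prkcb, a protein kinase C that binds NELL proteins, had the smallest p of the partner list. Its values were 9.27, 9.33 and 9.24 in knockout testes, against 9.18, 9.13 and 9.14 in control testes, a difference of 0.13 (limma adjusted p = 0.389). Cntnap4, a neuronal receptor of NELL1, differed by 0.10 (limma adjusted p = 0.626). Of the 10 measured partners 7 had a higher and 3 a lower mean in the knockout, where 47% of all tested clusters had a lower one. Their median difference was 0.06, against 0.0033 over all tested clusters, and 0 were called. Values did not overlap in 3 of the 10, 2 higher and 1 lower, against 15.3% of tested clusters in either direction.

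Genes that act downstream of receptor tyrosine kinases such as ROS1 were measured in testis RNA too, where many other receptors use them. Of 22 listed genes 18 were measured, of which 13 had a higher and 5 a lower mean in the knockout (median difference 0.02), and 0 were called. Values did not overlap in 3 of the 18 (16.7%), all higher in the knockout, against 6.73% higher and 15.3% in either direction among all tested clusters. Dusp6, a phosphatase that is induced by and dampens ERK signalling, had values of 9.92, 9.98 and 9.93 in knockout testes, against 9.50, 9.50 and 9.76 in control testes. The knockout arrays lay close together above all controls (difference 0.36, SE 0.075, limma adjusted p = 0.291).

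Etv5, an ETS transcription factor of spermatogonial stem cells and of the epididymal initial segment, had 2 clusters, of which only the brighter is given. Its values were 9.58, 9.65 and 9.72 in knockout testes, against 9.33, 9.40 and 9.46 in control testes. The groups did not overlap, and the difference of 0.25 (SE 0.055) did not pass (limma adjusted p = 0.294). The third gene without overlap was Etv1, another ETS factor, again in the brighter of 2 clusters (0.09, limma adjusted p = 0.524). Etv4, of the same subfamily, had values of 7.48, 7.27 and 7.22 in knockout testes, against 7.20, 7.45 and 7.39 in control testes. These overlapped (difference -0.02, limma adjusted p = 0.954). The GDNF receptor gene Gfra1, which marks the stem spermatogonia in which Dusp6 and Etv5 are also used, had values of 9.38, 9.40 and 9.41 in knockout testes, against 8.91, 8.97 and 9.13 in control testes (difference 0.39, limma adjusted p = 0.242). Gfra1 was the 1 marker of the spermatogonia list with a higher mean in the knockout. The other 10 had lower means, 4 of them without overlap, against 8.6% lower without overlap among all tested clusters. The part of these or any other cells in the values of Dusp6 and Etv5 was not tested.

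**Figure D2:**
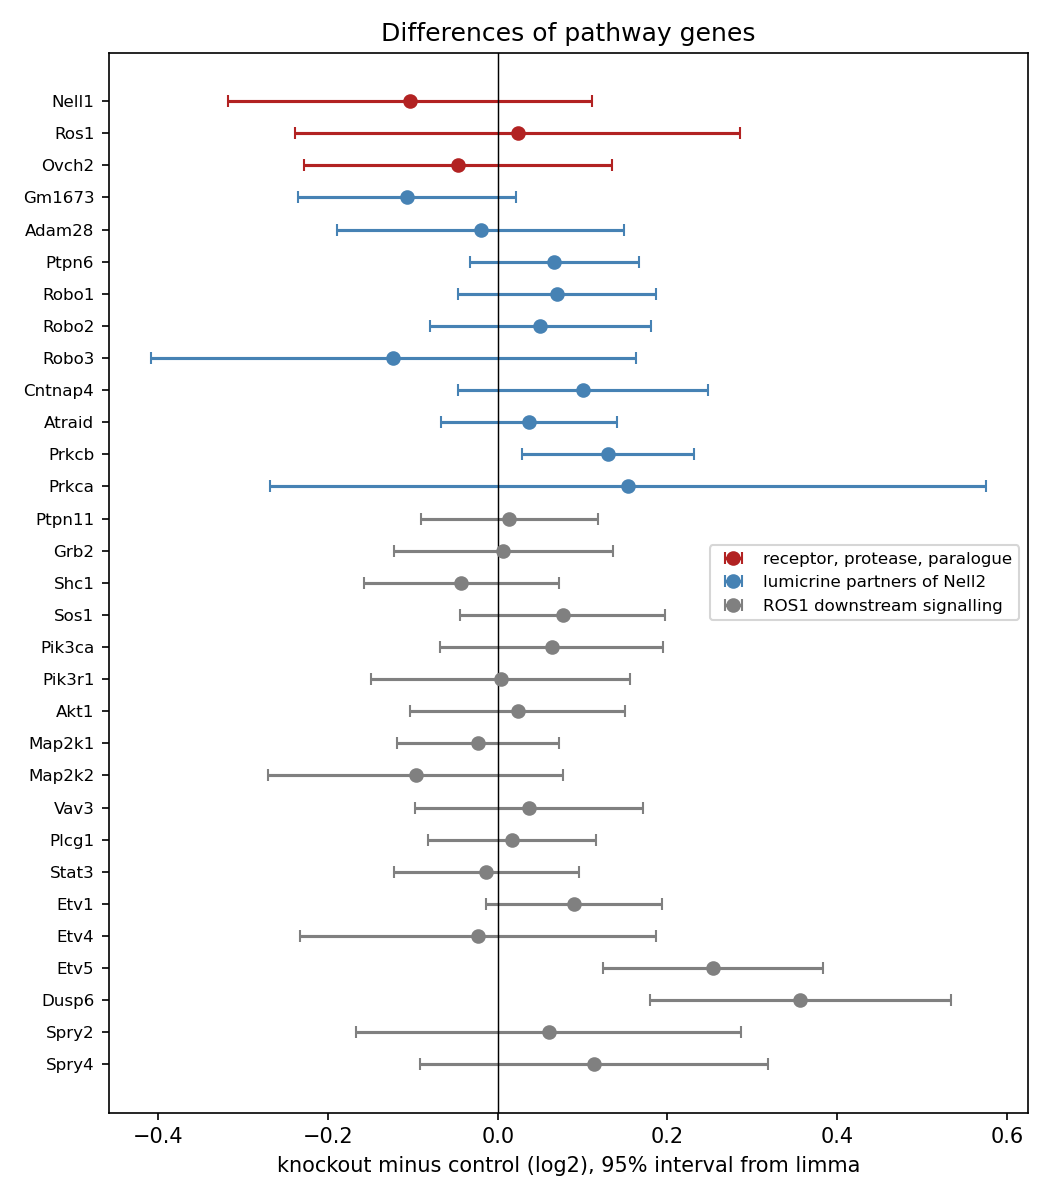
Knockout minus control difference (log2) of Nell1, Ros1 and Ovch2, of the 10 partner genes and of the 18 downstream genes, with 95% intervals from limma that are not adjusted for the number of genes. Most intervals span 0; those of Prkcb, Etv5 and Dusp6 lie above it, and none of these genes passed after adjustment.

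ADAM3, the sperm surface protein that OVCH2 helps to mature, is made in the testis with the help of chaperones and partner ADAM proteins. Adam3 had values of 6.62, 6.67 and 6.89 in knockout testes, against 6.80, 7.68 and 7.74 in control testes. Control replicate 1 lay among the knockout arrays, and the difference of -0.68 (SE 0.24) did not pass (limma adjusted p = 0.399). Without control replicate 1 the difference was -0.98 and passed (limma adjusted p = 0.0279), in a fit that called 0.239% of all tested clusters.

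Adam2, whose protein is a partner of ADAM3, again had control replicate 1 among the knockout arrays. Its values were 8.23, 8.27 and 8.64 in knockout testes, against 8.52, 9.44 and 9.09 in control testes (difference -0.64, limma adjusted p = 0.402). Adam1a, which encodes a partner of ADAM2 in the endoplasmic reticulum, had values of 7.92, 7.88 and 8.01 in knockout testes, against 7.83, 7.74 and 7.73 in control testes. The knockout arrays lay above all controls by a narrow margin (difference 0.17, limma adjusted p = 0.374). Of the 17 measured genes of the ADAM3 list 11 had a lower and 6 a higher mean in the knockout (median difference -0.013), and 0 were called. Values did not overlap in 1, which was higher, and in 0 lower ones, against 8.6% lower among all tested clusters. Without control replicate 1, 5 of the 17 (29.4%) were lower without overlap, against 13.1% of all tested clusters. That count was 4 without knockout replicate 3 (23.5%, against 12.9% of all tested clusters) and 0 without control replicate 2 (against 13.2%). It was 1 without any other single array (5.88%, against 12.1% to 14.3%).

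Markers of pachytene spermatocytes, the most advanced germ cells at this age, mostly had lower means in the knockout. Of 16 measured markers 15 had a lower and 1 a higher mean in the knockout (median difference -0.28), and 0 were called. Values were lower without overlap in 4 of the 16 (25%), against 8.6% of all tested clusters. That count was 13 without control replicate 1 (81.2%, against 13.1% of all tested clusters) and 14 without knockout replicate 3 (87.5%, against 12.9%). It stayed at 4 without any other single array (25%, against 12.1% to 14.3% of all tested clusters). Cks2, a partner of cyclin-dependent kinases, differed by -0.21 (limma adjusted p = 0.296) in the brightest of its 3 clusters. The meiotic cyclin gene Ccna1 differed by -0.27 (limma adjusted p = 0.320) and Tcp11, a gene of sperm function, by -0.74 (limma adjusted p = 0.374). Tcp11 passed without control replicate 1 (difference -1.04, limma adjusted p = 0.0153).

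Nell2 was set beside the mean of these markers in each array. Relative to the control mean, Nell2 stood at -0.86, -0.74 and -0.79 in knockout replicates 1, 2 and 3, against -0.083, 0.027 and 0.057 in control replicates 1, 2 and 3. The mean of the pachytene markers stood at -0.47, -0.41 and -0.25 in the knockout replicates, against -0.29, 0.20 and 0.092 in the control replicates. In both, knockout replicate 1 was the lowest array and control replicate 1 the lowest control. Control replicate 1 lay between knockout replicates 2 and 3 in the mean of the pachytene markers and with the other controls in Nell2. For Nell2 that place is part of its choice for a difference that was great against its spread. In 4 of the 16 markers, those lower without overlap, control replicate 1 also lay above every knockout array. An example is Ccna1, with 7.37 in control replicate 1, against 7.29, 7.19 and 7.17 in knockout testes. The part of pachytene cells in the difference of Nell2 was not tested.

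Markers of the other cells are given for the same arrays. Early meiotic prophase had 11 of 13 markers below the control mean (median -0.05), with list means of -0.15, -0.12 and 0.047 in the knockout arrays, against -0.035, -0.003 and 0.037 in the control arrays. Of these 13, 2 were lower without overlap, against 8.6% of all tested clusters. That count was 8 (61.5%) without knockout replicate 3, against 12.9% of all tested clusters. It was 2 or 3 without any other single array (15.4% or 23.1%, against 12.1% to 14.3%). The median was -0.11 without knockout replicate 3 and -0.0083 without knockout replicate 1. Spermatogonia had 10 of 11 below it (median -0.11), with list means of -0.065, -0.093 and -0.099 in the knockout arrays, against 0.036, -0.056 and 0.020 in the control arrays. Among them were Sall4, a zinc-finger factor (-0.30, limma adjusted p = 0.288), and the RNA-binding protein gene Lin28a (-0.27, limma adjusted p = 0.384). Sertoli cells had 8 of 10 markers above the control mean (median 0.07), with list means of 0.063, 0.098 and 0.033 in the knockout arrays, against 0.020, -0.040 and 0.020 in the control arrays. Values were higher without overlap in 3 of the 10, against 6.73% of all tested clusters. Kitl had the smallest p of this list (difference 0.28, limma adjusted p = 0.235).

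Markers of Leydig cells had higher means in the knockout in 5 of 6 genes. The median was 0.30, and it was 0.17 without knockout replicate 3 and 0.19 without control replicate 3. Their list means were 0.10, 0.16 and 0.30 in the knockout arrays, against 0.19, -0.027 and -0.16 in the control arrays, which overlapped. Values did not overlap in 3 of the 6 (50%, 2 higher and 1 lower), against 15.3% of all tested clusters. The lower 1 was Hsd17b3, which had the smallest p of this list (difference -0.43, limma adjusted p = 0.292). Macrophage markers had higher means in 7 of 7 genes (median 0.15), with list means of 0.13, 0.18 and 0.14 in the knockout arrays, against -0.045, -0.053 and 0.098 in the control arrays. Values were higher without overlap in 3 of the 7, against 6.73% of all tested clusters. That count was 5 without knockout replicate 1, against 10.5% of all tested clusters, and 7 without control replicate 3, against 12.7%. It was 3 or 4 without any other single array, against 2335 to 2850 of the 21789 tested clusters. In these 5 lists 0 members were called, and whether these shifts take part in the difference of Nell2 was not tested.

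**Figure D3:**
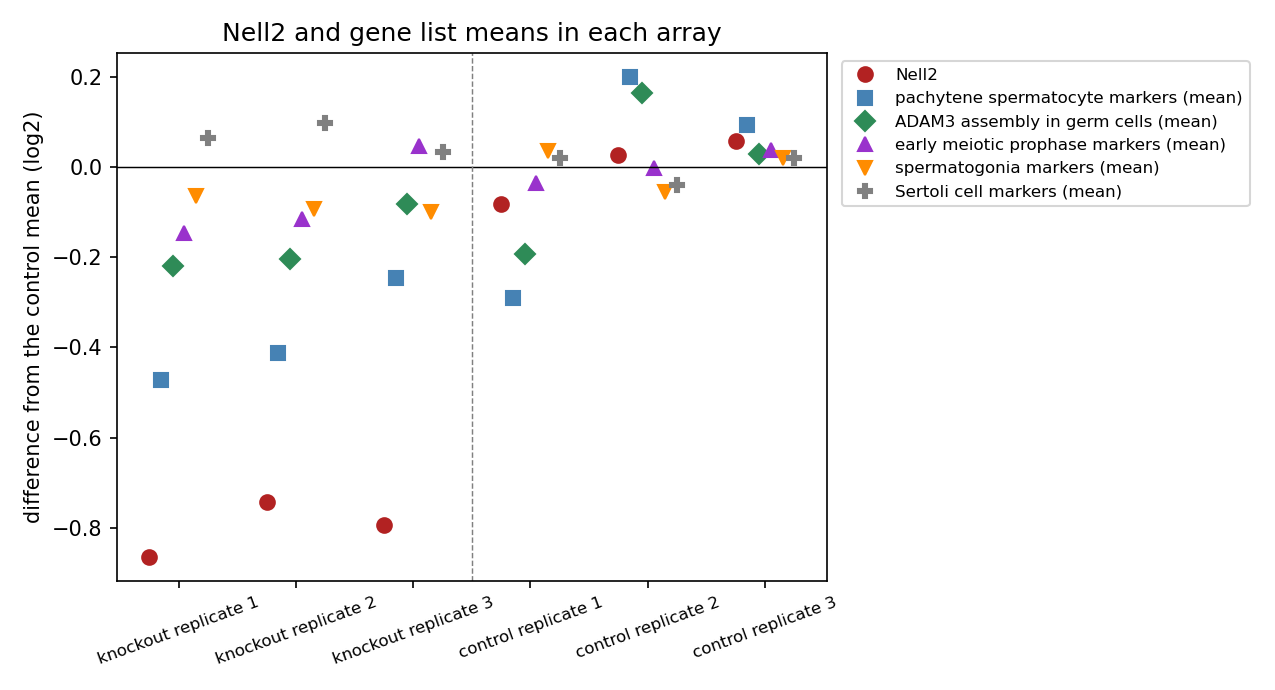
Difference from the control mean (log2) of Nell2 and of the means of 5 gene lists in each of the 6 arrays, knockout arrays on the left of the dashed line and control arrays on the right. Nell2, which was chosen on its difference in these arrays, separates the genotypes by at least 0.66. The mean of the pachytene markers in control replicate 1 (-0.29) lies among the knockout arrays.

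Nell2 was not the cluster with the greatest fall in the mean, but its spread was narrow beside that of the others that fell as much. Counting Nell2, 28 clusters were lower by 0.80 or more in the knockout, and 14 of them had groups without overlap, while 2 were higher by as much. Nell2 had the smallest standard error of the 28 (0.055, against a median of 0.287), and no other tested cluster had as wide a gap from its highest knockout to its lowest control array. Its residual SD of 0.067 was close to the median of 0.070 over all tested clusters. Because Nell2 was chosen for a difference that was great against its spread, this standing is part of the choice.

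In 25 of the 27 other clusters control replicate 1 lay at least 0.5 below the mean of control replicates 2 and 3, with a median offset of -0.96 over the 27. For Nell2 that offset was -0.12, and over all tested clusters the median was 0.015. The 27 were taken on their mean difference alone. Nell2 was chosen for a difference that was great against its spread, so its small offset is part of that choice. The 27 held Adam5, an ADAM gene of the list above (difference -0.88), Crisp2, a secretory protein gene of sperm (-0.86), and Catsperz, a subunit gene of the sperm calcium channel (-0.80), all 3 named after their values were seen. Their control values were 8.49, 9.79 and 9.76 for Adam5 and 8.91, 10.21 and 10.06 for Crisp2, with control replicate 1 the lowest in both.

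**Figure D4:**
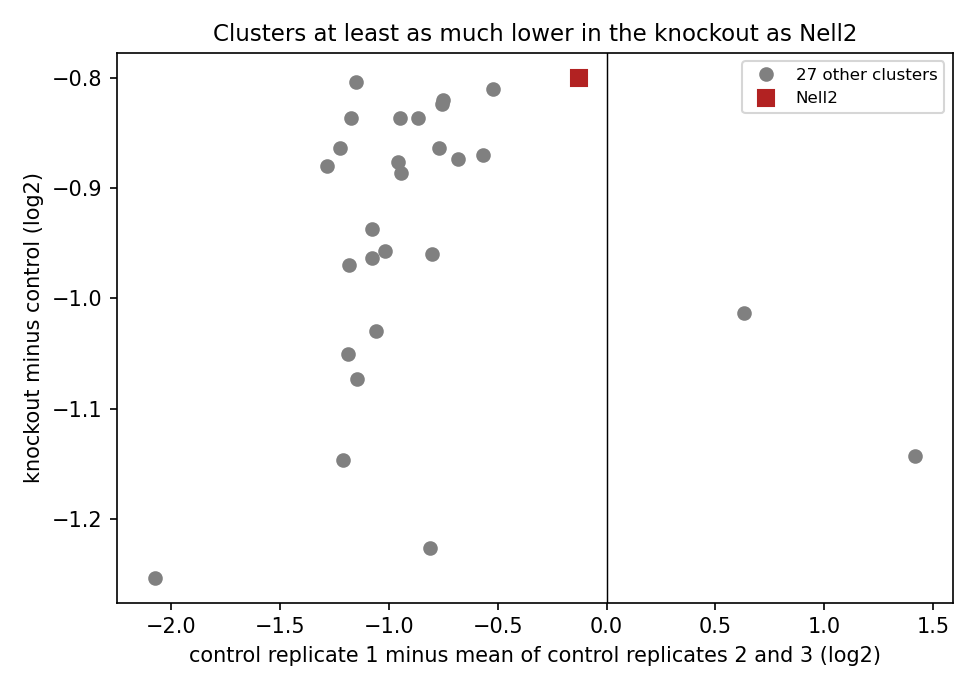
Each point is 1 of the 28 clusters that were at least 0.80 lower in the knockout; the x axis is control replicate 1 minus the mean of control replicates 2 and 3 and the y axis knockout minus control (both log2). Nell2 (red square) sits at -0.12 on the x axis, while 25 of the 27 others lie at or below -0.5. Nell2 was chosen for a difference that was great against its spread, so its small offset is part of that choice.

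The genes whose values over the 6 arrays were most like those of Nell2 were Stard6, Tdrd1, Bub1b, Wdr17 and Ssmem1. Likeness was Pearson's r among 837 named clusters whose SD over the arrays was at least 0.2, and since all 6 points share the genotype difference it is given as a description. Stard6, a lipid transfer protein gene of germ cells, had an r of 0.994 in 1 of its clusters and 0.990 in the other. In the first its values were 8.54, 8.76 and 8.65 in knockout testes, against 9.26, 9.46 and 9.44 in control testes. As in Nell2, control replicate 1 was the lowest control and lay far above the knockout arrays, which follows from the choice by r.

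Tdrd1, a tudor-domain scaffold gene of germ granules (r = 0.981), had values of 10.25, 10.30 and 10.35 in knockout testes, against 10.59, 10.73 and 10.77 in control testes. Bub1b, a spindle checkpoint kinase gene, had an r of 0.979 and a difference of -0.37, Wdr17 an r of 0.970 and a difference of -0.49, and Ssmem1 an r of 0.964 and a difference of -0.41. None of these 5 genes passed the test over all clusters (limma adjusted p of 0.0901 for both clusters of Stard6, 0.239 for Tdrd1, 0.188 for Bub1b, 0.220 for Wdr17 and 0.235 for Ssmem1). The r with Nell2 over the same 6 arrays was 0.41 for Nell1, -0.16 for Ros1 and 0.16 for Ovch2. It was 0.80 for Adam3, 0.81 for Piwil1 and 0.83 for Ldhc, the last 2 being pachytene markers named after their values were seen. Both had large differences for that list (-0.67 for Piwil1 and -0.75 for Ldhc). Other pachytene markers differed little or the other way, such as Pgk2 (-0.04) and Pou5f2 (0.10). Their r is not given, so Piwil1 and Ldhc do not stand for the list.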

How the data were processed

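Per the labels' protocols, testis RNA isolated with Trizol was column-purified and biotin-labelled for Affymetrix mouse gene arrays. Per the submitters' processing notes, the deposited log2 values were made by the authors with RMA in Affymetrix Expression Console; their versions and the build were not given in the sources used here. Of 35556 rows, the 21789 with 1 gene symbol in the platform annotation were tested and 13767 left out. The comparison, knockout minus control, was fitted with limma 3.58.1 under R 4.3.3 (lmFit, eBayes, no covariates; Benjamini-Hochberg adjustment over all tested clusters, threshold 0.05), which was tested on simulated data. A listed gene with several clusters is represented by the one with the highest mean. The number of arrays, 3 per group, limits the precision. The 4 genes and the lists were chosen with earlier results of these data known. Named are the 4 genes, chosen partners, the 3 members of each list with the smallest p and the 5 genes most like Nell2; lists described by their counts name fewer. Medians of the peritubular myoid and endothelial marker lists were -0.02 and -0.017, with 0 members called. No coordinates are printed, as no build is named for the array.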

Additional observations from a re-analysis of the deposited data

How the results depend on the processing

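Each value was recomputed without each array, with a replicate block, with arrays centred on their medians, with a robust prior that follows intensity, without dim clusters (mean under 6.97) and with all rows tested. The 3 called clusters became 0 with the replicate block, 7 with the robust prior, 0 with all rows tested, and between 0 and 52 when 1 array was left out (52 without control replicate 1, 1 without control replicate 2, 0 without any other). The difference of Nell2 stayed between -0.84 and -0.77 in all 11 settings and was -0.80 with the replicate block. Its limma adjusted p, which had led to its choice, was 0.0139 in all arrays and ran from 6.65e-04 to 0.219 over the settings. It was above 0.05 without any single array other than control replicate 1, with the replicate block (0.0545) and with all rows tested (0.0976). Deviations of same-numbered arrays correlated at 0.166, -0.054 and 0.17. Arrays of different number were not compared, so these values cannot tell whether arrays of the same number were paired. The block left 0 clusters called, and the call of Nell2 was among those lost. With 1 array left out, the difference ranged from -0.18 to 0.0033 for Nell1, -0.055 to 0.16 for Ros1, -0.090 to 0.035 for Ovch2, -0.055 to 0.050 for Adam28, -0.10 to 0.028 for Etv4, -0.063 to 0.012 for Myh11 and -0.040 to 0.13 for Tek, none of them called. That of Adam28 was 0 with arrays centred on their medians. Besides Adam3 and Tcp11, the named genes Stard6 (0.0279), Ssmem1 (0.0430) and Tdrd1 (0.0490) passed without control replicate 1, and Stard6 (0.00905) and Bub1b (0.0440) with the robust prior. Nell1, Ros1, Ovch2 and Adam28 were among the dim clusters, so that setting gave no value for them. The causes of these changes were not tested.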
